A study of Mus musculus with 9 samples.

Results

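The genes described here encode the cytoplasmic translation initiation factors (eIF) and elongation factors (eEF) of the mouse, with the inhibitors and enzymes that carry the same symbols. They were taken from the deposited expression values by symbol: every entry made of Eif or Eef, a digit and any further letters or digits. Names with a hyphen, such as Eif1-ps1, were thus left out. The eIF2 kinases (Eif2ak) and the sex-linked copies of the eIF2 gamma subunit were left out too. This gave 64 of the 55335 listed entries, and 61 of them were among the 13011 genes that had a mean of at least 1 FPKM (fragments normalized to transcript length and to the fragments of the library) over the 9 libraries. The 3 below that level were Eef1a2, Eef2k and Eif2c5. Eif2c5 is an old Argonaute-type name that the annotation now gives to a noncoding RNA, and it read at most 0.17 FPKM.

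Translation of most messages starts when the cap-binding complex eIF4F, made of the cap-binding protein eIF4E, the scaffold eIF4G and the helicase eIF4A, brings a messenger RNA to a small ribosomal subunit that carries eIF1, eIF1A, eIF3, eIF5 and the initiator tRNA bound to eIF2. eIF2B reloads eIF2 with GTP, eIF5B joins the large subunit, and eEF1A, eEF2 and eIF5A then serve elongation. In the early embryo these factors are at first maternal, from stores laid down in the oocyte, and are later supplied by the embryonic genome.

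The embryos came from ICR mice. Zygotes made by in vitro fertilization had been injected with siRNA and cultured to the 8-cell stage. Control zygotes were given nontargeting siRNA. MFN1-KD zygotes were given siRNA against Mfn1, a mitofusin of the outer mitochondrial membrane, and H3.3-KD zygotes siRNA against H3f3a and H3f3b, which both encode the histone variant H3.3. All 3 groups were thus injected and fertilized in vitro, and none was an uninjected embryo. Each group had 3 libraries, made from pooled embryos' polyadenylated RNA by Smart-Seq2. The labels give 5 to 10 embryos per group, and how many stand behind each library is unclear. The age of the females behind these libraries is not given in the sources used here, and the study calls the libraries of a group biological replicates without saying whether they came from separate fertilizations. The p-values measure the spread between these pools, part of which may be technical.

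The targets were reduced: Mfn1 stood at 15.4% of the control mean in MFN1-KD, and H3f3a and H3f3b stood at 7.73% and 8.24% in H3.3-KD. Libraries had 21643 to 22507 entries above 0 in control, 23655 to 24820 in H3.3-KD and 15577 to 20842 in MFN1-KD. The lowest of these was MFN1-KD replicate 3, so the largest falls of members in MFN1-KD are given with and without it, but not every difference there. Of 13 markers of the 8-cell embryo, 12 were above 1 FPKM in each control library, 10 to 13 in H3.3-KD and 8 to 11 in MFN1-KD. Cdx2 was under 0.1 FPKM in all control and MFN1-KD libraries, and Cdx2, Gata3 and Krt8 were listed at 0 in MFN1-KD replicate 3. The summed level of these markers was 21277 to 28230 FPKM in control, 10739 to 14431 in H3.3-KD and 29016 to 35215 in MFN1-KD. Dppa3 and Dppa5a made up nearly all of that sum. Other markers of the list were higher in H3.3-KD, such as Pou5f1 at 63.1 to 392 FPKM against 5.10 to 8.90 in control, and Tead4 at 79.1 to 89.9 against 30.4 to 39.1. Of 12 cumulus and granulosa markers only Amhr2 exceeded 1 FPKM, at 10.2 to 66.1, and 7 sperm markers summed to at most 2.93 FPKM. The part of these differences in the results below was not tested. In pooled embryos fewer cells of a type and less RNA per cell cannot be told apart.

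In H3.3-KD, 20 members rose and 6 fell. The 5 with the largest rise were Eif4a1, Eif4g1, Eef2, Eif4ebp2 and Eef1aknmt, by 2.39 to 3.02 on the log2 scale. In MFN1-KD, 0 rose and 3 fell: Eif5a, Eif4e and Eef1d. Together the 64 genes took 1.64% ± 0.151 of the summed FPKM in control (SD, n = 3), 2.96% ± 0.073 in H3.3-KD, compared with 1.57% ± 0.132 in MFN1-KD. The shares of H3.3-KD, at 2.88 to 3.02%, were above every control share, at 1.51 to 1.81%, whereas those of MFN1-KD, at 1.45 to 1.71%, overlapped the control. Abundant members weigh most in this share. From control to H3.3-KD the mean FPKM went from 1716 to 5835 for Eif1 and from 266 to 2169 for Eif4a1. Of the 61 members tested, 39 were above 0 and 22 below 0 on the log2 scale in H3.3-KD. The median of all genes tested lay at 0.26 there, with 29 members above it and 32 below. All entries summed to 1113563 to 1331977 FPKM in control and 933452 to 968604 in H3.3-KD.

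Calls here are limma tests on log2(FPKM + 1) with a Benjamini-Hochberg adjusted p under 0.05 over all 13011 genes. Fold changes are on that scale, which understates changes of low genes, and both knockdowns were compared with the same control libraries. In H3.3-KD the 20 members that rose were 32.8% of the 61, against 21.8% of all genes tested, and the 6 that fell were 9.84%, against 9.12%. The study applied its rule, a change over 2-fold with unadjusted p below 0.05, to DESeq2 results, and here it was applied to the limma values. By the study's rule 15 members were higher and 5 lower, or 24.6% and 8.20%, against 23.9% and 9.39% of all genes. The groups did not overlap for 26 members that were higher and 15 that were lower, or 42.6% and 24.6%, against 34.5% and 18.9% of all genes. The median member changed by 0.24 and the median gene by 0.26. In MFN1-KD the 3 members that fell were 4.92%, against 2.20% of all genes, and the 0 that rose stood against 1.15%. At an unadjusted p under 0.05, 4 members were higher and 15 lower in MFN1-KD, or 6.56% and 24.6%, against 9.21% and 14.0% of all genes. By the study's rule 0 were higher and 4 lower (Eif3k, Eif5a, Eef1d and Eef1e1), against 5.02% and 9.05%. Without overlap, 6 were higher and 18 lower, or 9.84% and 29.5%, against 11.4% and 16.8% of all genes. The median member was at -0.23 and the median gene at -0.09.

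**Figure D1:**
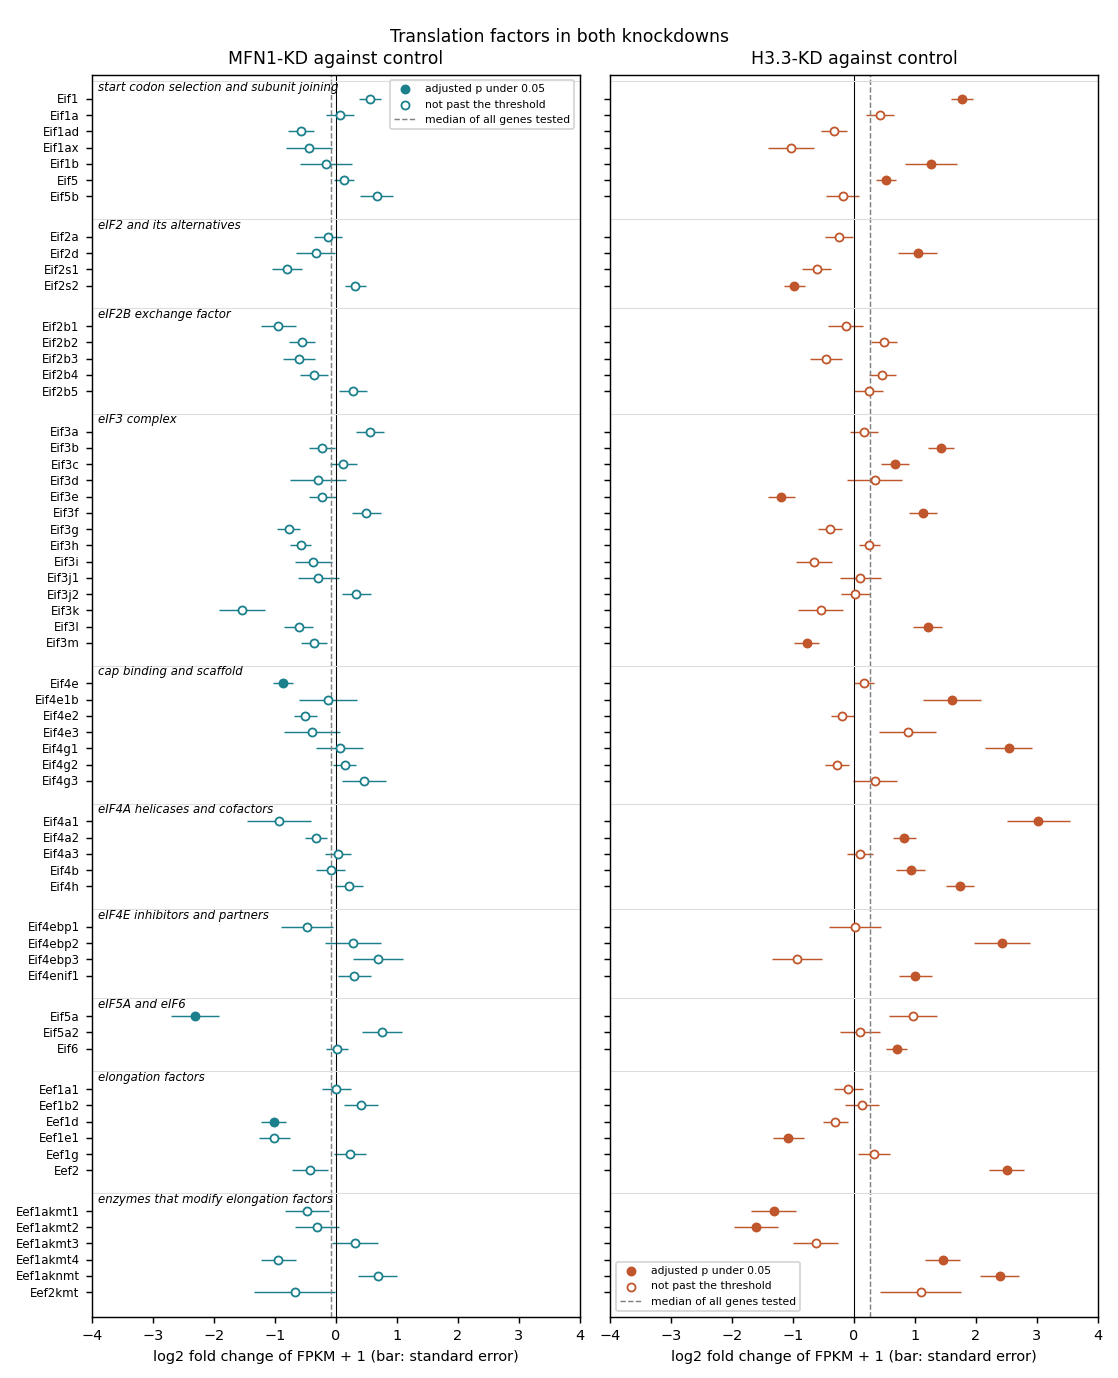
Log2 fold change of FPKM + 1 against control (horizontal axis, bars are standard errors) for the 61 members above the filter, by role, in MFN1-KD (left) and H3.3-KD (right). Filled points passed the adjusted p, 3 on the left and 26 on the right, and the dashed line marks the median of all genes tested.

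The H3.3-KD calls depended on how libraries were scaled. The median of all genes lay at 0.26 as deposited, and median-ratio scaling moved it by -0.27 and upper-quartile scaling by -0.33. With these scalings the 20 higher and 6 lower members became 12 and 13, or 12 and 17. With the trend on GC content and transcript length removed they became 8 and 12. Those lower then included Eif1ad, Eif2s1, Eif2b3, Eif3g, Eif3i, Eif3k, Eif4e2 and Eef1d, which were not called as deposited. The shares of all genes called under these settings are not given here, so these counts of members have no background beside them. Only Eif6 of the called members changed sign in any alternative, at -0.16 with that trend removed. Under all alternatives that could be run for them, 8 members stayed higher (Eif1, Eif4g1, Eif4a1, Eif4h, Eif4ebp2, Eef2, Eef1akmt4 and Eef1aknmt) and 3 stayed lower (Eif2s2, Eif3e and Eef1e1). Without control replicate 3 the number that rose was 12.

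The promoters of 4 of these 8 members are shown, chosen after their values were seen: Eif4g1, Eef2 and Eif4a1, which had the largest rises in H3.3-KD, and Eif1, which had the highest level there. Each window runs from 80 bases before to 30 bases after the RefSeq transcription start (GRCm38.p6, the assembly also called mm10), 5′ to 3′ on the gene's strand. Capitals mark the E-box CACGTG, a sequence read by MYC, MAX and USF factors, and TGACGTCA, the site of the cAMP response element. Both were searched as exact letters, and because each reads the same on the other strand, a match counts once.
Eif4g1, chr16:20672647-20672756, plus strand: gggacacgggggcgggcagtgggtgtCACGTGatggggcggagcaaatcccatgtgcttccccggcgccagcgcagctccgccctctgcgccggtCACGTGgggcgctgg
Eef2, chr10:81176551-81176660, plus strand: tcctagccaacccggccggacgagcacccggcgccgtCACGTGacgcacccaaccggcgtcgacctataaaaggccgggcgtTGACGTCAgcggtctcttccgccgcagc
Eif4a1, chr11:69672394-69672503, minus strand: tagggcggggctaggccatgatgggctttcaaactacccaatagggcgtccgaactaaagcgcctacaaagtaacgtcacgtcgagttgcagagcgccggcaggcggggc
Eif1, chr11:100319869-100319978, plus strand: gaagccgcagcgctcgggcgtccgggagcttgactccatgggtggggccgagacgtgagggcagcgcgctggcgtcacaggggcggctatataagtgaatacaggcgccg

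In the full 300-base promoters, of which 48 members have a sequence, CACGTG was present in 13 of the 45 members tested (28.9%), in 12.1% of the 8433 tested genes with a promoter and in 8.09% of all 27025 promoters. It was found in 8 of 18 members that rose in H3.3-KD (Eif1b, Eif3f, Eif4g1, Eif4a1, Eif4h, Eef2, Eef1akmt4 and Eef1aknmt), in 0 of 4 that fell there, and in both members with a promoter that fell in MFN1-KD, Eif4e and Eif5a. In Eif4a1 the match lies outside the window shown, and Eif1 had none. TGACGTCA occurred in Eef2 alone among the members, and in 3.84% of tested genes. Another sequence, the stress element TGATGCAA of ATF4, was searched on both strands and occurred in 0 of 45 members and 0.617% of tested genes. These motifs were chosen after the expression values had been seen, and a match is a description of letters, not of binding.

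Among the factors that choose the start codon, Eif1 stood apart. eIF1 holds the scanning small subunit open until an AUG is met. Eif1 read 1989, 1605 and 1556 FPKM in control, 2157, 3104 and 2363 in MFN1-KD, and 5804, 5928 and 5772 in H3.3-KD. Both knockdown groups lay above all controls, and the H3.3-KD pools differed from one another by less than the controls did. It rose by 1.77 ± 0.18 (log2, SE) in H3.3-KD (limma adjusted p = 0.00016), a ratio of group means of 3.40. In MFN1-KD the difference of 0.56 ± 0.18 did not pass (adjusted p = 0.10), although with the GC and length trend removed it was 1.05 (adjusted p = 0.037). The 11 processed copies of Eif1 with at least 95% identity summed to 2.12 to 2.29% of its level in control and 4.24 to 4.73% in H3.3-KD, and reads shared with them were not resolved here.

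Its paralog Eif1b was far lower, at 25.2, 23.3 and 25.8 FPKM in control, 16.1, 30.4 and 21.4 in MFN1-KD and 62.4, 30.7 and 115 in H3.3-KD. The H3.3-KD pools were all higher but spread widely, and Eif1b rose by 1.26 ± 0.43 (adjusted p = 0.046). Eif5, which encodes the GTPase-activating protein of eIF2, rose by 0.52 (adjusted p = 0.038). The Eif1b call was lost without any control library or without H3.3-KD replicate 1 or 3 (adjusted p 0.097 to 0.15). That of Eif5 was lost without any of the 3 control or the 3 H3.3-KD libraries (adjusted p 0.052 to 0.11).

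eIF1A, which works with eIF1 during scanning, is encoded by Eif1a and by the X-linked Eif1ax. The study used Eif1a as a marker of embryonic genome activation. Eif1a read 162, 158 and 169 FPKM in control, 223, 135 and 165 in MFN1-KD and 225, 183 and 254 in H3.3-KD, and neither difference passed (0.07 and 0.42, adjusted p = 0.90 and 0.19). The H3.3-KD pools were all above the controls, while the MFN1-KD pools straddled them. Eif1ax read 111, 99.1 and 117 FPKM in control, 114, 81.5 and 54.4 in MFN1-KD and 85.7, 54.2 and 31.0 in H3.3-KD. It was lower in all 3 H3.3-KD pools and passed only the study's 2-fold rule there (-1.03 ± 0.37, adjusted p = 0.056). Eif1ad, an eIF1A-domain protein, read 110, 126 and 128 FPKM in control and 77.9, 85.7 and 79.4 in MFN1-KD, without overlap (-0.57, adjusted p = 0.15), and 79.4, 92.7 and 121 in H3.3-KD. Its exons overlap those of Banf1 on the other strand, and without a strand setting the reads of the pair cannot be told apart. Eif5b, the subunit-joining GTPase, was at 0.67 in MFN1-KD, against -0.19 in H3.3-KD, and neither passed.

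The eIF2 subunits Eif2s2 and Eif2s1 were both below control in H3.3-KD, and lay on opposite sides of it in MFN1-KD. Eif2s2, the beta subunit, read 1366, 1563 and 1651 FPKM in control, 1929, 1662 and 2139 in MFN1-KD and 859, 683 and 781 in H3.3-KD. No pools overlapped between any of the groups, with H3.3-KD at the bottom and MFN1-KD at the top. It fell by 0.98 ± 0.17 on the log2 scale in H3.3-KD (adjusted p = 0.0023), to 50.7% of the control mean, and stood at 0.32 in MFN1-KD (adjusted p = 0.30). Eif2s1, the alpha subunit whose phosphorylation slows initiation under stress, read 467, 455 and 509 FPKM in control, 322, 339 and 185 in MFN1-KD and 296, 298 and 342 in H3.3-KD. All knockdown pools were below all controls, yet neither difference passed (-0.80 and -0.61, adjusted p = 0.087 and 0.076). Leaving out MFN1-KD replicate 3 brought the MFN1-KD difference to -0.53 (adjusted p = 0.13). Eif2d, which can deliver initiator tRNA without GTP, read 25.6, 16.6 and 13.5 FPKM in control, 19.7, 12.4 and 11.2 in MFN1-KD and 44.5, 38.2 and 32.3 in H3.3-KD. It rose by 1.04 ± 0.32 in H3.3-KD (adjusted p = 0.030). Leaving out control replicate 2, control replicate 3, or either of H3.3-KD replicates 1 and 2 ended this call (adjusted p 0.081 to 0.12). Eif2a, an alternative initiator tRNA carrier, was at -0.13 and -0.25.

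Of the 5 subunits of eIF2B, 0 passed the adjusted p in either knockdown in the main fit. With the GC and length trend removed, Eif2b3 passed in H3.3-KD, at -0.95 (adjusted p = 0.019). In MFN1-KD the median subunit was at -0.56 and the median gene at -0.09. The pools of 3 subunits lay wholly below the controls, as did those of 16.8% of all genes. Eif2b1 was the lowest, with 258, 250 and 323 FPKM in control, 211, 145 and 93.2 in MFN1-KD and 255, 286 and 213 in H3.3-KD (MFN1-KD -0.95 ± 0.29, adjusted p = 0.090). Leaving out MFN1-KD replicate 3 brought it to -0.65 (adjusted p = 0.17). Eif2b5, the catalytic subunit, had the highest value in MFN1-KD, with 111, 98.0 and 76.6 FPKM in control and 100, 117 and 128 in MFN1-KD, which overlapped. In H3.3-KD the subunit with the smallest p was Eif2b2, at 141, 132 and 129 FPKM in control and 183, 206 and 178 in H3.3-KD (0.49, adjusted p = 0.11), and Eif2b3 was the lowest at 227, 198 and 198 FPKM against 169, 167 and 120 (-0.46, adjusted p = 0.20).

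eIF3 is the large scaffold that binds the small subunit, and 12 of its subunits were described together, leaving out Eif3j1 and Eif3j2, paralogs for a loosely bound subunit. In control embryos their levels differed widely, from Eif3f at 69.8, 50.2 and 45.8 FPKM to Eif3m at 667, 795 and 849. In H3.3-KD the range was narrower. The ratio of the highest to the lowest subunit was 9.56, 16.4 and 18.5 in the control libraries, 8.92, 7.97 and 11.4 in MFN1-KD and 4.46, 5.08 and 8.07 in H3.3-KD. The SD of the 12 log2 levels was 1.33 ± 0.19 in control (n = 3 libraries), 1.156 ± 0.05 in MFN1-KD but 0.73 ± 0.13 in H3.3-KD, with all 3 H3.3-KD libraries below all controls. The same SD over all genes was 2.35 to 2.44 in control and 2.30 to 2.37 in H3.3-KD.

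**Figure D2:**
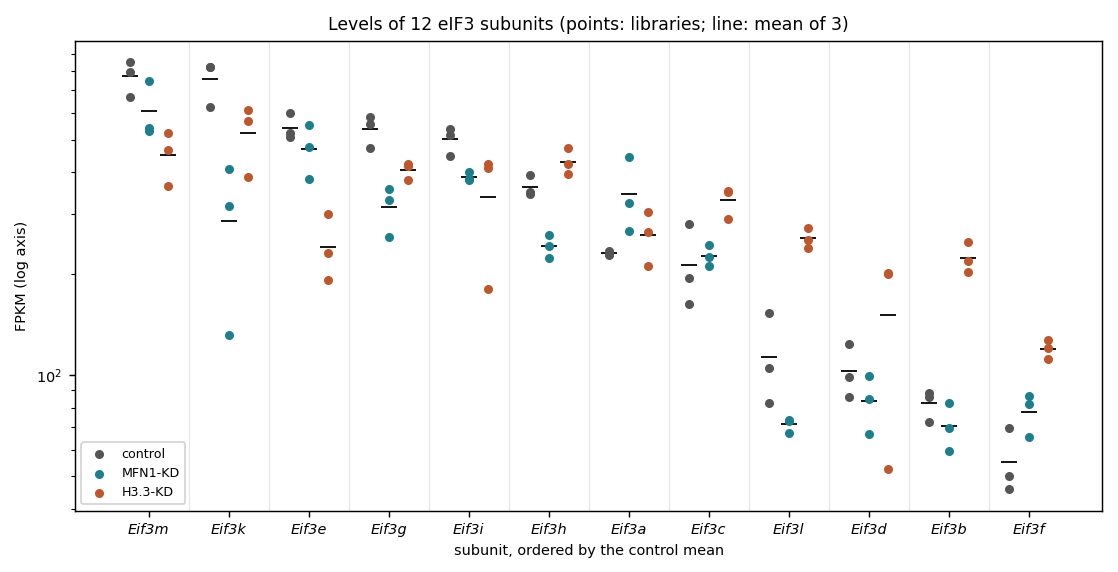
FPKM (vertical log axis) of 12 eIF3 subunits, ordered from the highest to the lowest control mean, with each library as a point and short lines at the means of 3. In H3.3-KD the subunits on the left lie mostly below control and Eif3b, Eif3f and Eif3l on the right lie above it, while Eif3k has its lowest point, 131 FPKM, in MFN1-KD.

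By gene, 4 of the 14 eIF3 members rose in H3.3-KD and 2 fell, where 21.8% and 9.12% of all genes did. Eif3b, a core scaffold subunit, read 86.2, 88.7 and 72.5 FPKM in control, 59.4, 69.4 and 82.8 in MFN1-KD and 218, 203 and 248 in H3.3-KD. Only the H3.3-KD pools were apart from the controls, and the rise was 1.42 ± 0.21 (adjusted p = 0.00090). Eif3l (1.21, adjusted p = 0.0043), Eif3f (1.12, adjusted p = 0.0049) and Eif3c (0.67, adjusted p = 0.047) rose too. Eif3e, a subunit of the PCI-domain ring, read 522, 510 and 598 FPKM in control, 475, 553 and 382 in MFN1-KD and 300, 230 and 191 in H3.3-KD. The H3.3-KD pools were the lowest without overlap, and it fell by 1.19 ± 0.22 (adjusted p = 0.0029). Another subunit of the complex, Eif3m, fell by 0.78 (adjusted p = 0.018). Transcripts of the 4 that rose had a GC content of 49.6 to 55.9%, and those of the 2 that fell had 36.2% and 38.8%. With the GC and length trend removed Eif3e alone of these 6 stayed past the threshold, at -1.06 (adjusted p = 0.016). Eif3b was then at 0.32, Eif3c at 0.003, Eif3f at 0.53, Eif3l at 0.65 and Eif3m at -0.54 (adjusted p = 0.36, 0.99, 0.066, 0.054 and 0.14). Eif3c also lost its call under both rescalings (adjusted p = 0.28 and 0.41). Eif3c lost its call without any library other than control replicate 1 or MFN1-KD replicate 3 (adjusted p 0.056 to 0.18). Eif3m lost it when control replicate 2, control replicate 3 or H3.3-KD replicate 3 was left out (adjusted p 0.061 to 0.078).

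In MFN1-KD no eIF3 member passed the adjusted p. Eif3k came closest, with 627, 822 and 824 FPKM in control, 409, 318 and 131 in MFN1-KD and 568, 612 and 388 in H3.3-KD. All MFN1-KD pools but the highest were below every H3.3-KD pool, and all were below the controls. The difference of -1.54 ± 0.38 passed the study's 2-fold rule (adjusted p = 0.054), and without MFN1-KD replicate 3 it was -1.06 (adjusted p = 0.059). Eif3a, the largest subunit, was the highest member of the complex relative to control in MFN1-KD, with 227, 233 and 229 FPKM in control and 323, 268 and 444 in MFN1-KD (0.55, adjusted p = 0.18). Its groups did not overlap, and in H3.3-KD, at 266, 211 and 304 FPKM, they did.

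The cap-binding protein Eif4e fell in MFN1-KD, and its scaffold Eif4g1 rose in H3.3-KD. Eif4e (ENSMUSG00000028156, chr3:138526179-138559696, plus strand) read 1237, 1468 and 1508 FPKM in control, 799, 736 and 771 in MFN1-KD and 1453, 1489 and 1766 in H3.3-KD. The MFN1-KD pools were tightly grouped and far below both other groups. It fell by 0.86 ± 0.16 in MFN1-KD (adjusted p = 0.034), to 54.7% of the control mean, and stood at 0.16 in H3.3-KD (adjusted p = 0.49). Without MFN1-KD replicate 3 the fall was 0.87 (adjusted p = 0.040), and with median-ratio scaling 0.80, which did not pass (adjusted p = 0.069). With control replicates 1, 2, 3 and H3.3-KD replicates 1, 2 (which enter the shared estimate of spread) left out in turn, the adjusted p was 0.052, 0.15, 0.15, 0.052 and 0.061.

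Of the related cap binders, Eif4e2, which binds caps without joining eIF4G, read 207, 225 and 245 FPKM in control, 170, 170 and 139 in MFN1-KD and 182, 195 and 215 in H3.3-KD. The MFN1-KD pools lay below the controls without passing (-0.50, adjusted p = 0.15). Eif4e3 was low throughout, at 0.73, 1.43 and 0.85 FPKM in control, 0.04, 1.06 and 0.59 in MFN1-KD and 1.02, 5.23 and 2.83 in H3.3-KD. Eif4e1b, the oocyte form, was near absent in control at 0.07, 0.55 and 0.02 FPKM and in MFN1-KD at 0.02, 0.10 and 0.15, and read 0.89, 5.15 and 3.10 in H3.3-KD. Eif4e1b and Eif4e3 reached the filter of 1 FPKM only through H3.3-KD, the group where they read highest, so their differences there are descriptions. Eif4e1b is 1 of the 20 members counted as risen, and 19 remain without it. Its call was in any case lost without any control library (adjusted p 0.053 to 0.097).

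Eif4g1, the main scaffold of eIF4F, read 54.0, 28.6 and 20.5 FPKM in control, 29.8, 49.1 and 24.8 in MFN1-KD and 137, 219 and 226 in H3.3-KD. The lowest H3.3-KD pool was above the highest control, and MFN1-KD lay within the control range. It rose by 2.54 ± 0.39 in H3.3-KD (adjusted p = 0.0010), a ratio of means of 5.64, and its promoter is the first of those printed above. Eif4g2, a scaffold that does not bind eIF4E, read 706, 529 and 440 FPKM in control, 612, 608 and 593 in MFN1-KD and 455, 457 and 437 in H3.3-KD, and neither difference passed (0.14 and -0.28). Eif4g3 read 3.48, 2.30 and 2.32 FPKM in control, 2.22, 5.83 and 4.85 in MFN1-KD and 3.37, 3.51 and 4.14 in H3.3-KD, with overlap in both.

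Of the eIF4A helicases and their cofactors, 4 of 5 rose in H3.3-KD, where 21.8% of all genes did, and Eif4a1 and Eif4h held under median-ratio and upper-quartile scaling while Eif4a2 and Eif4b did not. Eif4a1, the helicase of eIF4F, read 302, 248 and 248 FPKM in control, 239, 235 and 46.2 in MFN1-KD and 2195, 1881 and 2430.3 in H3.3-KD. Every H3.3-KD pool was far above every other library. The rise of 3.02 ± 0.52 was the largest of any member (adjusted p = 0.0022), a ratio of means of 8.16, and with the GC and length trend removed it was 2.54 (adjusted p = 0.0049). Its 2 processed copies together read 1.48 to 2.07% of its level in control and 6.59 to 6.93% in H3.3-KD. In MFN1-KD the difference of -0.94 did not pass and rested on replicate 3, without which it was -0.16 (adjusted p = 0.69).

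Eif4a2, the close relative of Eif4a1, read 179, 170 and 162 FPKM in control, 147, 146 and 116 in MFN1-KD and 326, 278 and 302 in H3.3-KD. The 3 groups did not overlap, and only the H3.3-KD difference passed (0.82 ± 0.19, adjusted p = 0.0081). With the 2 rescalings it was 0.47 and 0.39 (adjusted p = 0.076 and 0.12). Eif4h, a cofactor that stimulates the helicase, read 103, 81.4 and 64.5 FPKM in control, 99.9, 104 and 81.4 in MFN1-KD and 298, 293 and 235 in H3.3-KD. It rose by 1.74 ± 0.23 in H3.3-KD (adjusted p = 0.00055), the smallest p of this role, and overlapped the control in MFN1-KD. With the GC and length trend removed the rise was 0.69 (adjusted p = 0.024). Eif4b, the other cofactor, rose by 0.93 (adjusted p = 0.016), which failed once control replicate 3 or H3.3-KD replicate 2 was dropped (adjusted p = 0.072 and 0.063). Eif4b was also at adjusted p = 0.063 and 0.099 with the rescalings, and at 0.26 with the trend removed (adjusted p = 0.38). Eif4a3, which belongs to the exon junction complex rather than to initiation, differed from control by 0.09 in H3.3-KD, against 0.04 in MFN1-KD.

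**Figure D3:**
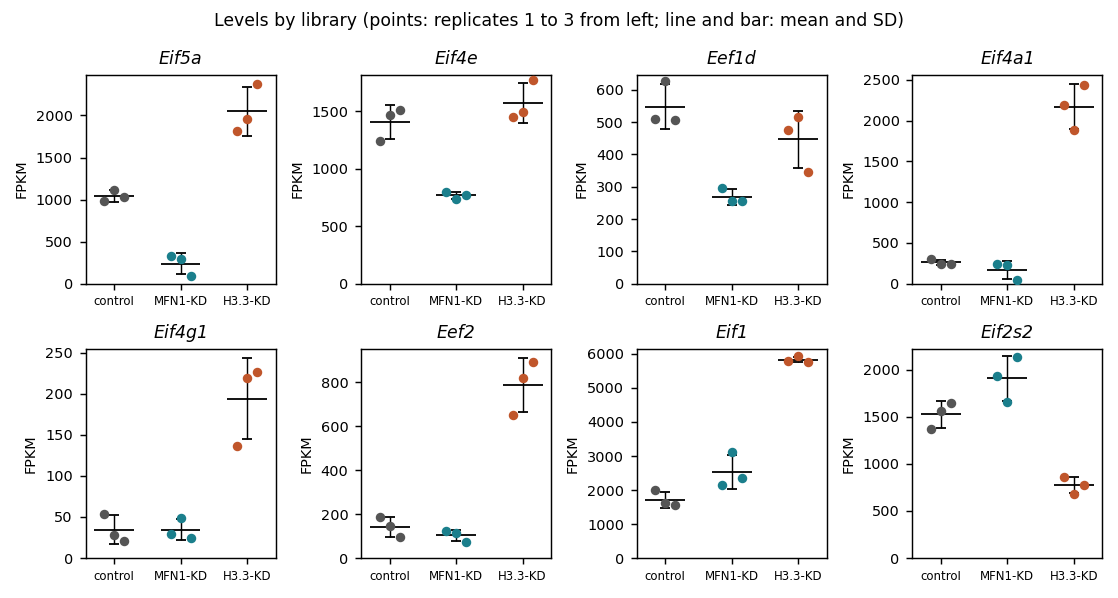
FPKM (vertical axis, from 0) of 8 members in the control, MFN1-KD and H3.3-KD libraries, with replicates as points and the mean and SD of 3 as lines and bars. Eif5a, Eif4e and Eef1d are lowest in MFN1-KD, Eif4a1, Eif4g1, Eef2 and Eif1 are highest in H3.3-KD, and Eif2s2 is lowest in H3.3-KD.

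The proteins that hold eIF4E away from eIF4G differed from one another. Eif4ebp2 read 3.01, 1.36 and 1.88 FPKM in control, 1.93, 3.54 and 2.67 in MFN1-KD and 12.4, 8.66 and 31.4 in H3.3-KD, and rose by 2.42 ± 0.46 in H3.3-KD (adjusted p = 0.0033). All H3.3-KD pools were higher, with a wide spread. Eif4ebp1, the most abundant of the 3 at the control level, read 108, 125 and 96.3 FPKM in control, 116, 124 and 33.2 in MFN1-KD and 127, 93.2 and 113 in H3.3-KD, with overlap in both. Eif4ebp3 read 4.99, 3.13 and 2.52 FPKM in control, 3.50, 9.61 and 6.65 in MFN1-KD and 0.90, 1.06 and 2.20 in H3.3-KD. The H3.3-KD pools were below the controls without passing (-0.93, adjusted p = 0.11). Its exons also belong to a longer read-through gene on the same strand, so its level is uncertain. Eif4enif1, which carries eIF4E into the nucleus, rose by 1.00 in H3.3-KD (adjusted p = 0.019), which failed when control replicate 2, control replicate 3 or H3.3-KD replicate 2 was left out (adjusted p 0.053 to 0.078).

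Eif5a was the member with the largest change in MFN1-KD. eIF5A helps ribosomes through stretches such as consecutive prolines, and works only once a lysine has been turned into hypusine by Dhps and then Dohh. Eif5a (ENSMUSG00000078812, chr11:69916714-69921958, minus strand) read 986, 1116 and 1026 FPKM in control, 327, 296 and 93.9 in MFN1-KD and 1817, 1960 and 2373 in H3.3-KD. The 3 groups were fully apart, in the order MFN1-KD, control, H3.3-KD. It fell by 2.31 ± 0.39 in MFN1-KD (adjusted p = 0.033), to 22.9% of the control mean, and was at 0.97 ± 0.39 in H3.3-KD (adjusted p = 0.088), which did not pass. Without MFN1-KD replicate 3 the fall was 1.74 (adjusted p = 0.0059), and with the GC and length trend removed 1.80 (adjusted p = 0.031). Leaving out control replicates 1, 2, 3 and H3.3-KD replicates 1, 2 in turn, the fall was 2.26 to 2.35 and the adjusted p was 0.067, 0.14, 0.14, 0.0504 and 0.058. Its near-identical copy read at most 0.794% of its level in any library.

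Dohh, the enzyme for the last step of hypusine, was ordered like Eif5a over the groups: it read 12.2, 13.2 and 12.4 FPKM in control, 4.11, 5.70 and 2.16 in MFN1-KD and 100, 107 and 130 in H3.3-KD. The 3 groups of Dohh were fully apart. Dohh fell by 1.51 ± 0.31 in MFN1-KD (adjusted p = 0.038) and rose by 3.05 ± 0.31 in H3.3-KD (adjusted p = 0.00016). Unlike Eif5a, Dohh was not followed over the alternatives, so how far these calls hold is not known. Dhps, for the first step, stood at -0.35 and 0.35, and neither passed (adjusted p = 0.35 and 0.23).

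The minor paralog Eif5a2 read 1.57, 2.65 and 1.44 FPKM in control, 3.22, 5.10 and 3.25 in MFN1-KD and 1.59, 2.14 and 2.46 in H3.3-KD. The MFN1-KD pools were all above the controls, without passing (0.75, adjusted p = 0.20). Eif6, which keeps the large ribosomal subunit from joining too early, read 647, 657 and 610 FPKM in control, 576, 611 and 762 in MFN1-KD and 930, 991 and 1198 in H3.3-KD. All H3.3-KD pools were higher, by 0.70 ± 0.18 (adjusted p = 0.015), but the sign turned to -0.16 (adjusted p = 0.71) with the GC and length trend removed. The transcript is 57.9% GC. Without control replicate 3 its adjusted p was 0.058.

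Among the elongation factors, Eef2, the GTPase that moves the ribosome along by a codon, read 186, 146 and 94.2 FPKM in control, 125, 112 and 74.7 in MFN1-KD and 652, 819 and 892 in H3.3-KD. MFN1-KD overlapped the control, and every H3.3-KD pool was far above. It rose by 2.51 ± 0.29 in H3.3-KD (adjusted p = 0.00028), a ratio of means of 5.55. In contrast Eef1a1, which delivers aminoacyl-tRNA, read 1520, 1571 and 1252 FPKM in control, 1827, 1566 and 1057 in MFN1-KD and 1636, 1383 and 1078 in H3.3-KD, with log2 differences of 0.01 and -0.10. Its tissue-restricted paralog Eef1a2 was listed at 0, 0 and 0.02 FPKM in control, at 0 in MFN1-KD and at 0.21, 0.20 and 0.28 in H3.3-KD, below the filter.

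The exchange complex that reloads eEF1A was uneven in MFN1-KD. Eef1d (ENSMUSG00000055762, chr15:75894205-75909556, minus strand), a subunit of this complex, read 508, 628 and 507 FPKM in control, 296, 255 and 255 in MFN1-KD and 475, 517 and 347 in H3.3-KD. The MFN1-KD pools were lowest without overlap. Eef1d did not pass in H3.3-KD (-0.31, adjusted p = 0.28), but did there with the GC and length trend removed (-0.88, adjusted p = 0.018). It fell by 1.02 ± 0.20 in MFN1-KD (adjusted p = 0.037), to 49.0% of the control mean. Without MFN1-KD replicate 3 the fall was 0.98 (adjusted p = 0.053), with the GC and length trend removed 0.94 (adjusted p = 0.054), and with control replicates 1, 2, 3 and H3.3-KD replicates 1, 2 left out in turn the adjusted p was 0.069, 0.16, 0.15, 0.054 and 0.061. Eef1b2, the other exchange subunit, read 664, 589 and 475 FPKM in control, 643, 919 and 747 in MFN1-KD and 930.03, 600.0 and 438 in H3.3-KD, with overlap in both, and Eef1g stood at 0.23 and 0.33. The 3 near-identical copies of Eef1g read 18.6 to 20.8% of its level in control, 2.08 to 4.66% in MFN1-KD and 40.3 to 47.5% in H3.3-KD. Reads shared with these copies were not resolved, so the level of Eef1g is uncertain. Eef1e1, a small member of the tRNA synthetase complex, read 277, 402 and 359 FPKM in control, 229.8, 163 and 128 in MFN1-KD and 188, 152 and 147 in H3.3-KD. It was below all controls in both knockdowns. It fell by 1.08 ± 0.25 in H3.3-KD (adjusted p = 0.0094) and was at -1.01 in MFN1-KD (adjusted p = 0.057). Leaving out MFN1-KD replicate 3 brought the latter to -0.82 (adjusted p = 0.10), which is under 2-fold.

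Of the 6 enzymes tested that modify elongation factors, 2 rose and 2 fell in H3.3-KD, where 21.8% and 9.12% of all genes did. Eef1aknmt, which methylates eEF1A, read 3.3, 1.84 and 3.04 FPKM in control, 4.4, 4.23 and 6.32 in MFN1-KD and 14.2, 20.5 and 20.7 in H3.3-KD. The groups did not overlap, and it rose by 2.39 ± 0.32 in H3.3-KD (adjusted p = 0.00056), while 0.69 in MFN1-KD did not pass (adjusted p = 0.23). The lysine methyltransferase Eef1akmt4 read 50.4, 49.9 and 41.3 FPKM in control, 25.3, 34.2 and 15.7 in MFN1-KD and 132, 114 and 149 in H3.3-KD, with all 3 groups apart. It rose by 1.46 ± 0.29 in H3.3-KD (adjusted p = 0.0041) and was at -0.95 in MFN1-KD (adjusted p = 0.091). With MFN1-KD replicate 3 left out, Eef1akmt4 was at -0.66 there (adjusted p = 0.17). It shares exonic bases with Alg3 on the other strand, which read 8.83 FPKM on average in control. Eef1akmt2 read 21.1, 33.9 and 29.6 FPKM in control, 13.5, 22.3 and 35.4 in MFN1-KD and 10.1, 8.53 and 6.84 in H3.3-KD. All H3.3-KD pools were lowest, and it fell by 1.61 ± 0.36 (adjusted p = 0.0077). Eef1akmt1 fell by 1.32 (adjusted p = 0.021), which failed when replicate 2 or 3 of either the controls or H3.3-KD was left out (adjusted p 0.052 to 0.083). Eef2k, the kinase that inhibits eEF2, read 0.14 to 0.20 FPKM in control and 1.29 to 1.97 in H3.3-KD, and lay under the filter.

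Plain FPKM ratios of related genes within a library do not depend on its scaling. The Eif4a1 to Eif4a2 ratio was 1.69, 1.46 and 1.53 in control, 1.62, 1.61 and 0.399 in MFN1-KD and 6.73, 6.76 and 8.04 in H3.3-KD. The Eif4g1 to Eif4g2 ratio was 0.0766, 0.0540 and 0.0466 in control and 0.301, 0.478 and 0.517 in H3.3-KD. In both pairs the H3.3-KD pools lay apart from the controls. The Eif5a to Eif5a2 ratio was 628, 421 and 712 in control, 102, 58.0 and 28.9 in MFN1-KD and 1143, 916 and 965 in H3.3-KD, so that all 3 groups were apart. The Eif1a to Eif1ax ratio was 1.46, 1.59 and 1.44 in control, 1.96, 1.65 and 3.04 in MFN1-KD and 2.62, 3.37 and 8.19 in H3.3-KD. The tests and overlaps used log2 ratios of FPKM + 1, which scaling can shift for low genes such as Eif5a2. Of the 14 comparisons of 7 ratios, each by a two-sided exact permutation test, 10 had groups that did not overlap and reached p = 0.1. That is the smallest value that 3 against 3 allows (0.14 after adjustment), so none could pass 0.05.

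**Figure D4:**
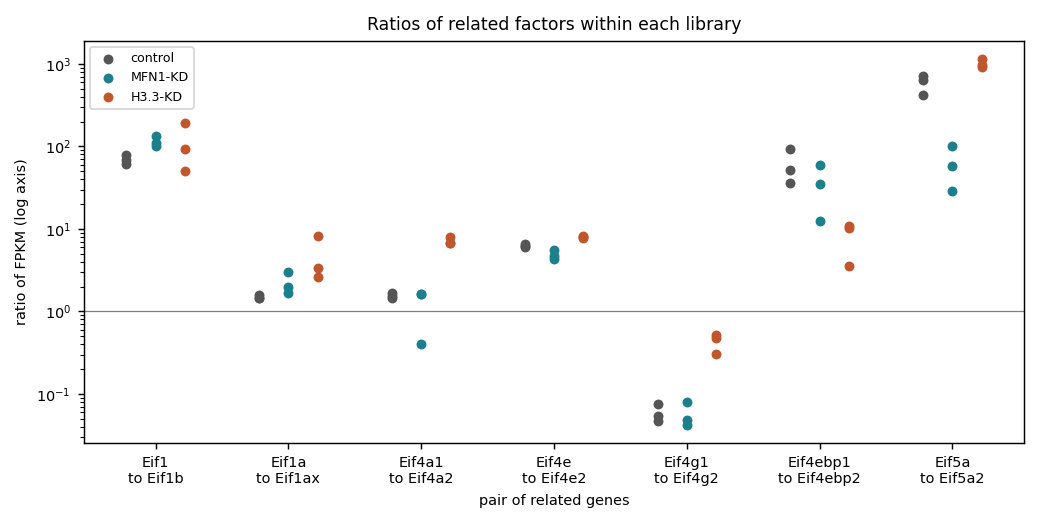
Ratio of the FPKM of related genes within each library (vertical log axis) for 7 pairs, with control, MFN1-KD and H3.3-KD libraries as points. Eif4a1 to Eif4a2 and Eif4g1 to Eif4g2 are higher in H3.3-KD than in every other library, and Eif5a to Eif5a2 is lowest in MFN1-KD.

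Compared directly, MFN1-KD was higher than H3.3-KD for 5 members and lower for 23, at the same adjusted p, against 11.0% and 27.6% of all genes. The 5 were Eif5b, Eif2s2, Eif3e, Eif4ebp3 and Eef1akmt2. The lower ones included Eif5a by -3.28 ± 0.39 (adjusted p = 0.00022) and Eif4e by -1.02 ± 0.16 (adjusted p = 0.00090), so for these genes the difference between the knockdowns was itself past the threshold. Eif4a1, at -3.96, differed most. The Eif5a difference passed under all 18 alternatives, that of Eif4e under 16, missing with the 2 rescalings, and that of Eef1d (-0.71, adjusted p = 0.019) under 13. For Eef1d the difference shrank to -0.30 with median-ratio scaling, -0.23 with upper-quartile scaling and -0.07 with the GC and length trend removed (adjusted p = 0.34, 0.43 and 0.85), and the adjusted p was 0.062 and 0.081 without H3.3-KD replicates 1 and 2.

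The H3.3-KD changes went with base composition. Members that rose had a median transcript GC content of 51.3%, those that fell 40.7%, and those not called 48.2%. Across the 60 members with a GC value, Spearman's rho between GC content and the H3.3-KD log2 fold change was 0.48, and across 12769 genes 0.34. For MFN1-KD they were -0.10 and -0.22. These are descriptions across genes measured in the same libraries, and the part of GC content in the calls was not tested beyond removing its trend. After that removal Eef2 was at 1.30 (adjusted p = 0.0034) and Eif4g1 at 1.74 (adjusted p = 0.0029), both still past the threshold.

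**Figure D5:**
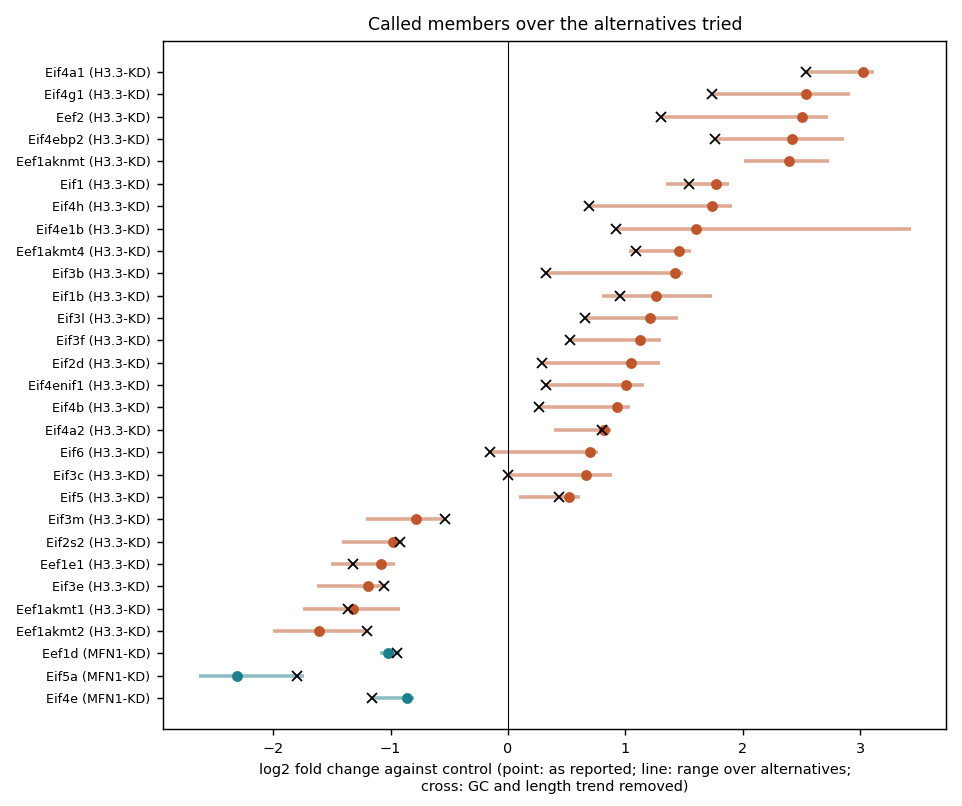
Log2 fold change against control (horizontal axis) of the 26 members called in H3.3-KD and the 3 called in MFN1-KD. Points are the values as reported, lines the range over the alternatives, and crosses the values with the GC and length trend removed, where Eif6 is below 0.

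Around these members, 64 other genes of translation in 7 lists were counted, of which 60 were tested. None of them was followed over the alternatives. H3.3-KD had 13 that rose and 8 that fell, MFN1-KD 1 of each, so the share risen in H3.3-KD was about the 21.8% of all genes. The latter were Gspt1, the GTPase of translation termination, at 1.19 ± 0.27 (adjusted p = 0.047), and Dohh. Gspt1 read 224, 149 and 114 FPKM in control, 363, 364 and 347 in MFN1-KD and 126, 128 and 193 in H3.3-KD, so only MFN1-KD was apart. In H3.3-KD Pelo, which rescues stalled ribosomes, rose by 2.77, and Mknk2, a kinase of eIF4E, by 2.96. Ppp1r15a, the stress-induced subunit that directs the eIF2 alpha phosphatase, read 22.7, 20.7 and 14.7 FPKM in control and 70.5, 133 and 92.1 in H3.3-KD, a rise of 2.26 (adjusted p = 0.00068). Paip1 and Paip2, which bind the poly(A)-binding protein and respectively aid and hinder translation, fell by 1.89 and 1.22 (adjusted p = 0.00061 and 0.0011).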

How the data were processed

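The 9 libraries of 8-cell embryos were grouped by their titles into control, MFN1-KD and H3.3-KD, 3 each. The authors made Smart-Seq2 libraries, and the submitters' processing notes name cutadapt 1.16, STAR and mm10. The authors deposited FPKM per gene symbol, rounded to 2 decimals. The program that computed FPKM, the annotation and the strand setting are not given in the sources used here. Read counts were not used here, so depth is unknown and no counting interval is given. There were 0 columns of other samples.

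Genes whose mean over all 9 libraries reached 1 FPKM were tested. Their log2(FPKM + 1) values entered a single linear model of the 9 libraries, without covariates, in limma 3.58.1 (trend and robust options, R 4.3.3), with p-values adjusted by Benjamini-Hochberg over the 13011 genes. Ratios and tables used Python 3.11.15, numpy 2.4.6, pandas 2.3.3 and scipy 1.17.1, and plots matplotlib 3.10.9. On simulated data for H3.3-KD against control with 11754 genes, 200 of them changed by 2 on the log2 scale, 124 were recovered (62.0%) with 4 false calls, and 0 genes were called in the simulated MFN1-KD comparison without changes. Replicate numbers were checked as pairs. Correlations of deviations ran from -0.05 to 0.16 for same-numbered libraries and from -0.12 to 0.07 for the others. The highest, 0.16, was of control replicate 2 with MFN1-KD replicate 2. No block was used in the main fit because these correlations were weak, but a pairing by number was not excluded. Alternatives were a pseudocount of 0.1, dropping the filter, raising it to 10 FPKM, median-ratio and upper-quartile scaling, a replicate block, removal of the GC and length trend (splines with 5 degrees of freedom), library weights, only the 6 libraries compared, and leaving out each library.

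Positions, GC content and lengths (of the longest transcript) came from GENCODE M21 (GRCm38), which holds 53647 of the 55335 symbols, and promoters (250 bases before and 50 after the start) from RefSeq on GRCm38.p6. Near-identical copies were found with blastn 2.17.0 (at least 95% identity over 200 bases).

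Values in every library are given, for each role and knockdown, for the member with the smallest p and the member with the largest change of opposite sign, for the listed paralog sets and for Eif1a. Other members past either call rule are named with their change, and at most 2 genes of each outside list are named per knockdown. Dhps and Eef2k were named after their values were seen. The members, roles and lists were chosen with earlier results of these data known.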

Additional observations from a re-analysis of the deposited data

How the results depend on the processing

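All tests rest on 3 libraries a group without read counts. The number of members lower in MFN1-KD, 3, was 0 with no filter, with the replicate block and with only the 6 libraries compared, 6 with a mean of at least 10 FPKM, 9 with library weights and 0 to 6 without a library. With median-ratio scaling the number stayed at 3, with Eif3k in place of Eif4e. Members higher there numbered 1 with the GC and length trend removed and 1 with library weights. Members past 2-fold in MFN1-KD, 4, were 2 with median-ratio and 2 with upper-quartile scaling and 2 to 7 without a library. In H3.3-KD the members higher, 20, were 12 with median-ratio scaling, 12 with upper-quartile scaling, 8 with the trend removed and 12 to 21 without a library, and those lower, 6, were 13, 17, 12 and 4 to 8, and 13 with library weights. Past 2-fold, the 15 higher were 9 with upper-quartile scaling and 6 with the trend removed, and the 5 lower were 9, 10 and 8 with the 2 scalings and the trend removed. Between the knockdowns, the 5 higher were 11, 15 and 10, and the 23 lower were 15 with upper-quartile scaling and 9 with the trend removed. The median member minus the median gene in H3.3-KD, -0.02, was 0.20 with no filter, -0.11 and -0.12 with the scalings, -0.14 with the trend removed and -0.10 to 0.016 without a library, and in MFN1-KD, -0.14 as reported, it was -0.17 to -0.022. Eif6 in H3.3-KD reversed to -0.16 with the trend removed. The cause of these shifts was not tested. The shares of all genes called under each alternative are not given here, so these counts of members have no background beside them. Whether the numbers pair the libraries is not known, and with the replicate block H3.3-KD had 17 higher and 7 lower. Where leaving out a library left a group with 2, the spread was pooled over all groups.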
